A study of Mus musculus with 4 samples.

Results

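The genes examined here encode 10 transcription factors that specify natural killer (NK) cells and drive their maturation: Tbx21, Eomes, Id2, Nfil3, Runx1, Runx3, Ets1, Prdm1, Zeb2 and Ikzf3. Their XBP1s peaks were taken by name, as every row of the deposited peak table whose nearest gene is one of the 10, at any distance. This gave 15 of 4890 peaks, assigned to 6 of the 10 genes. The data are chromatin immunoprecipitation and sequencing (ChIP-seq) of XBP1s in NK cells from the spleens of C57BL/6 mice, which the series describes as Il15TgXbp1f/f, that is, with an Il15 transgene and a floxed Xbp1 gene. The labels name no Cre driver for the floxed allele and no promoter for the transgene, and they do not say whether animals were pooled or how old they were. All cells had IL-15 at 50 ng/ml for 1 h before fixation. The 2 groups are 2 XBP1s immunoprecipitations and 2 inputs, the inputs being chromatin set aside without antibody, and no untreated or Xbp1-deficient cells are among the 4 libraries. The values are 1 combined peak list without a column for any library, so peaks carry no replicate error or sequencing depth, and libraries and conditions could not be compared. The peak score is 0 in every row. A peak is therefore described by its position and by the width of its interval, which is not a measure of signal. A list of bound intervals also cannot show whether a gene is expressed, so the cell type was not checked.

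XBP1s is the transcription factor made when the stress sensor IRE1 splices Xbp1 mRNA in the unfolded protein response, and it is best known for switching on genes of the secretory pathway. NK cells arise from common lymphoid progenitors under a succession of factors. Nfil3, Ets1 and Id2 act early, the RUNX proteins throughout, the T-box factors Eomes and T-bet (encoded by Tbx21) set NK identity and effector function, and Zeb2, Blimp-1 (encoded by Prdm1) and Aiolos (encoded by Ikzf3) act in terminal maturation. IL-15 is the cytokine on which NK cell development and survival depend.

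The sequences below are shown because they hold the start sites on which the promoter results turn. Each is 251 bases long, 5′ to 3′ on the gene's strand, and ends on the base of the transcription start site (TSS), from RefSeq's promoter table on GRCm38.p6, the assembly of mm10. Capitals mark matches to the searched motifs given further on. The Runx3 upstream start is the 1 member window with a peak over it. The Runx3 downstream start has none, the Runx1 and Prdm1 starts have a peak close by but outside the bases printed, and the Tbx21 start has no assigned peak at all.
Runx3 upstream start, chr4:135120395-135120645, plus strand: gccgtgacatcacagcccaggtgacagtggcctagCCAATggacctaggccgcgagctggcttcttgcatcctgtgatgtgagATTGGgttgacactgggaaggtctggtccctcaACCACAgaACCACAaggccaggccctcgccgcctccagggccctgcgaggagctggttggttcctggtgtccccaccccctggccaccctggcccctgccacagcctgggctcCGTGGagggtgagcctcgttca
Runx3 downstream start, chr4:135152295-135152545, plus strand: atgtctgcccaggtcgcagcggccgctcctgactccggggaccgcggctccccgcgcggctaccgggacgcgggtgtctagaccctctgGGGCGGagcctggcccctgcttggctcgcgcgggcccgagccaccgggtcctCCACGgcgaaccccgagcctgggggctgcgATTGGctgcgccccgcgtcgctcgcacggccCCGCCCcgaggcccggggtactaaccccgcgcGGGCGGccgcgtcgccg
Runx1 downstream start, chr16:92697329-92697579, minus strand: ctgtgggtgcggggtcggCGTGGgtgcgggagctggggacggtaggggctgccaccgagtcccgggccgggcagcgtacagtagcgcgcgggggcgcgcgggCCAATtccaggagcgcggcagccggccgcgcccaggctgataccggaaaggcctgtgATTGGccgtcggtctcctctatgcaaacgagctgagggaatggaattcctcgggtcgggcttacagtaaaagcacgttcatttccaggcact
Prdm1, chr10:44458748-44458998, minus strand: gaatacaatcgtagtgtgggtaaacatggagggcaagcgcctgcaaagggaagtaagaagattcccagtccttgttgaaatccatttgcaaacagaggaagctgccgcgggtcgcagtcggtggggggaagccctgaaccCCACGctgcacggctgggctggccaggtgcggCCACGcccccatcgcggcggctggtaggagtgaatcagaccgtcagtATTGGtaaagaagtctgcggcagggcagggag
Tbx21, chr11:97115331-97115581, minus strand: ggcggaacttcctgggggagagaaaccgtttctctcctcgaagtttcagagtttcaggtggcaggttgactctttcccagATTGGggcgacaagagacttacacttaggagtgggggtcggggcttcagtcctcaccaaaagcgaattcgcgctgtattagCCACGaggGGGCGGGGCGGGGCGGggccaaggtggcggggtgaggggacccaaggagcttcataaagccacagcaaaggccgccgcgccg

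Of the 15 peaks, 3 were at promoters, and 2 of these were narrow. Counting a peak as a promoter peak when its centre lay within 1000 bp of a TSS by the authors' distance, 3 of the 10 genes had one (30%): Runx3, Runx1 and Prdm1. Of all 21900 protein-coding genes 15.1% had one, and the difference was not tested. The count depends on the settings: it was 1 of 10 (Runx3) with peaks of at least 200 bp or the widest 50% of all peaks, and 5 of 10 with a window of 3000 bp. The share of protein-coding genes was not taken at these settings, so the 15.1% cannot be set beside those counts. Their intervals measured 432 bp at Runx3, 160 bp at Runx1 and 112 bp at Prdm1, against a median of 403 bp over all 3639 promoter peaks (interquartile range 274 to 616 bp). The Runx3 interval was thus near the middle of promoter peaks, at percentile 55.1 of their widths, while Runx1 and Prdm1 were among the narrowest, at percentiles 4.6 and 2.7.

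Distal peaks made up most of the set. Of the 15 peaks, 12 (80%) lay more than 1000 bp from the TSS and 9 (60%) more than 5000 bp from it. Among all 4890 peaks these shares were 25.6% and 18.1%. Counted by gene, 5 of 10 members had a distal peak (Eomes, Id2, Nfil3, Runx1 and Runx3), beside 3.76% of protein-coding genes. With the limit at 5000 bp, 4 of 10 had one (Eomes, Nfil3, Runx1 and Runx3), beside 2.63%. At any distance the counts were 6 of 10 and 17.8%. None of these differences was tested, and the members were chosen with earlier results of these data known. Peaks of the same gene share a locus and are not replicates, and a distal peak is tied to its gene only by being nearest to that gene's TSS. By the authors' distance, 3 of the 6 members with a peak had distal peaks alone (Eomes, Id2 and Nfil3). Another 2 had both kinds (Runx1 and Runx3) and 1 had a promoter peak alone (Prdm1). Over the 3890 protein-coding genes with a peak, a promoter peak alone was the usual pattern (3067 genes, 78.8%), distal peaks alone were found at 576 (14.8%) and both kinds at 247 (6.35%).

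**Figure D1:**
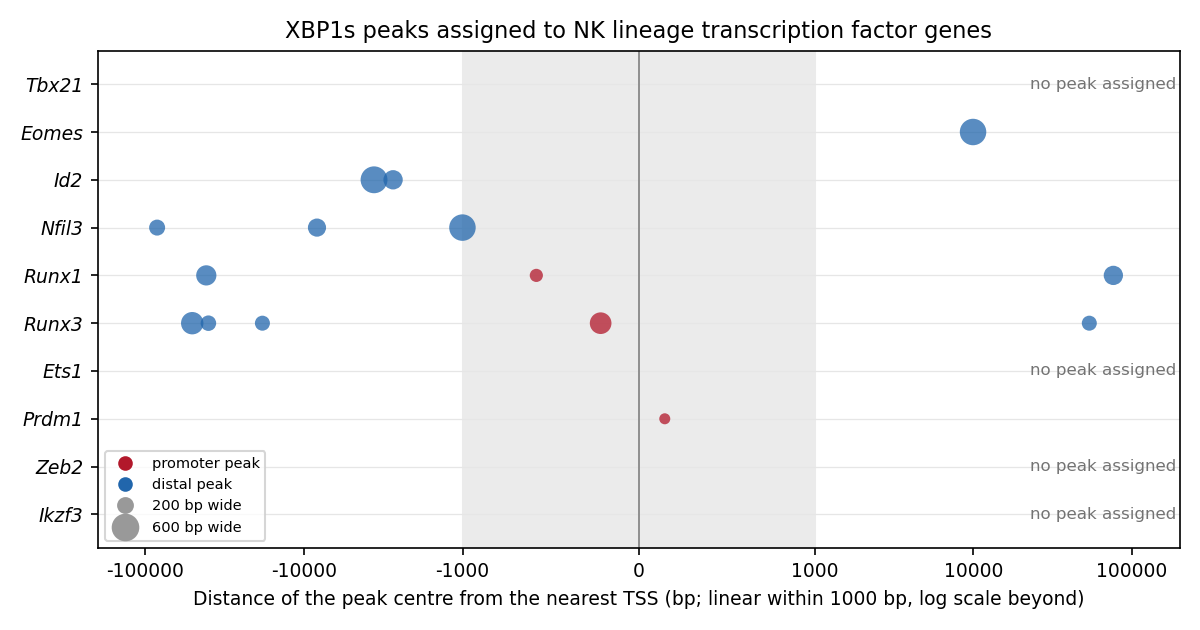
Each point is 1 peak, placed at the distance of its centre from the nearest TSS in bp (linear within 1000 bp, log scale beyond, negative is upstream) and sized by interval width, with the 1000 bp promoter window in grey. The 3 promoter peaks lie at Runx1, Runx3 and Prdm1, the 12 distal peaks reach from -84328 to 76262 bp, and 4 genes have no assigned peak.

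**Figure D2:**
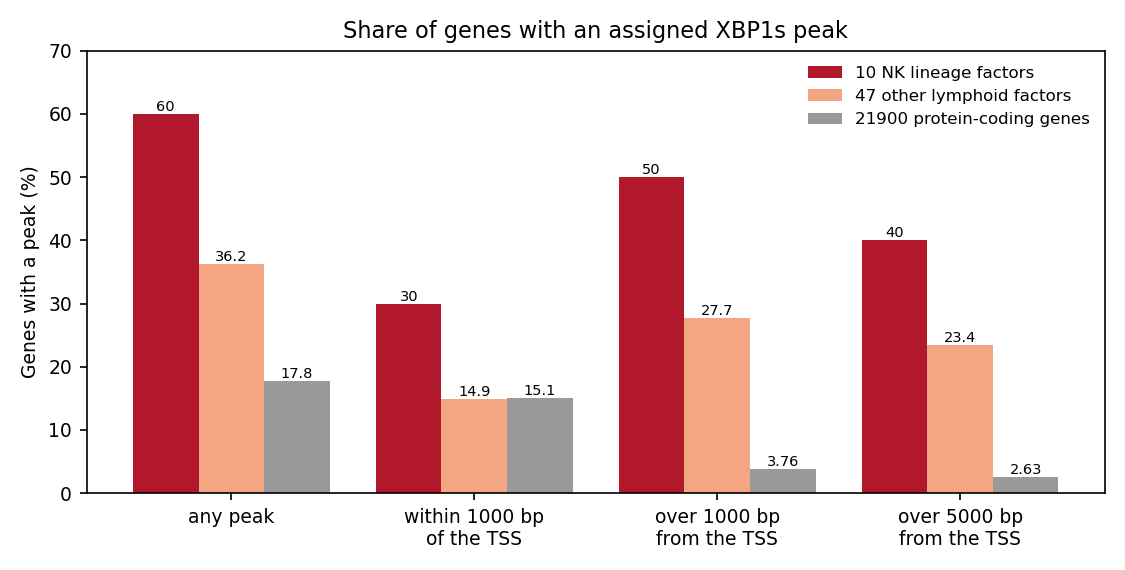
Bars give the share of genes (%) with an assigned peak of each kind, for the 10 members, 47 other lymphoid transcription factors and all 21900 protein-coding genes. The members stand at 30% against 15.1% for promoter peaks and at 50% against 3.76% for peaks over 1000 bp from the TSS. No test was made, and the promoter count of 3 members was 1 with peaks of at least 200 bp and 5 with a window of 3000 bp. The share of all genes was not taken at those settings.

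Among the T-box factors, Eomes had 1 peak and Tbx21 none. The Eomes peak measured 646 bp (chromosome 9, 118487808 to 118488453), was centred 9941 bp downstream of the TSS, and began 1676 bp beyond the end of the gene as RefSeq draws it. The authors annotated it as intergenic, and in RefSeq its centre lies inside the lncRNA gene Gm33460. Its width was at percentile 88.5 of all distal peaks, whose median is 310 bp. The listed peak closest to Tbx21 was 544 bp wide (chromosome 11, 97142206 to 97142749). It lay 26875 bp upstream of the Tbx21 TSS, inside the gene Tbkbp1 (intron 6 of 8 of its transcript), and the authors' nearest gene for it is Mir7235. Within 100000 bp of Tbx21 there were 5 peaks, all assigned to other genes. The protocol also names an antibody against T-bet, but the 4 libraries are XBP1s immunoprecipitations and inputs, so no T-bet data are described here.

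The early factors Nfil3 and Id2 had peaks upstream of their start sites, by the authors' distance. Nfil3, the leucine zipper factor needed for commitment to the NK lineage, had 3 peaks. The nearest was 647 bp wide (chromosome 13, 52981717 to 52982363) and centred 1001 bp upstream, 1 bp outside the promoter window. For comparison, the outermost promoter peak of the set, at Runx1, was centred 581 bp from the TSS, and the next distal one, at Id2, 2741 bp from it. The authors called the Nfil3 peak intergenic, and RefSeq's promoter table gives the same TSS as theirs. The RefSeq gene extends further upstream than that TSS, and the whole peak lies inside it, 515 bp from its end. Measured from that end, the peak centre would be downstream and within the 1000 bp promoter window. The other two, of 304 bp (52989163 to 52989466) and 236 bp (53065250 to 53065485), were 8275 and 84328 bp upstream. Id2, an inhibitor of E-protein transcription factors, had a pair of peaks at 2741 and 3614 bp upstream on chromosome 12, of 345 bp (25098661 to 25099005) and 665 bp (25099374 to 25100038). Only 368 bp separated them, and the nearer carries a CpG label. Of 708 neighbouring pairs of peaks assigned to the same gene in the whole list, 124 (17.5%) were as close or closer, and the median gap was 3026 bp. At 665 bp the farther Id2 peak was the widest of the 15. For Ets1, a founding member of the ETS family, no peak was assigned. The nearest ones, of 535 and 515 bp, lay 128506 and 131692 bp from the gene, in intron 1 of its neighbour Fli1, another ETS factor.

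The RUNX genes had the most peaks, 8 of the 15. RUNX proteins bind DNA with the partner CBF-beta, and both genes are transcribed from an upstream and a downstream start site. At Runx3 there were 5 peaks spread over 136664 bp of chromosome 4. The promoter peak (135120214 to 135120645, 432 bp) covered the upstream start and ended on its TSS base, so that all 251 bases printed above lie within it. The downstream start, at position 135152545, had no peak closer than 31900 bp. A further 3 peaks lay upstream, at 18278 bp (135102264 to 135102471, 208 bp), 40040 bp (135080495 to 135080716, 222 bp) and 50649 bp (135069766 to 135070227, 462 bp). The last, of 208 bp (135206222 to 135206429), lay 28232 bp beyond the gene's end, carries a CpG label and is 7540 bp from the gene Clic4.

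At Runx1 the arrangement of promoter peak and start sites was the other way round. The peak of 160 bp (chromosome 16, 92697831 to 92697990) belonged to the downstream start, 502 to 661 bp upstream of that TSS, while the upstream start at 92826074 had none closer than 41106 bp. Of the other 2 Runx1 peaks, 1 of 343 bp (92620896 to 92621238) lay 76262 bp downstream in intron 3 of 4 of the transcript the authors name, and 1 of 377 bp (92867180 to 92867556) lay 41294 bp upstream. Runx1 is isolated in the list: the closest peak assigned to any other gene was 953371 bp away, at Son. Around Runx3 and Nfil3 too, no peak within 100000 bp carried another gene's name.

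Among the factors of terminal maturation, Prdm1 alone had a peak. It was the narrowest of the set, 112 bp (chromosome 10, 44458545 to 44458656), and lay 92 to 203 bp downstream of the TSS, in the 5′ untranslated part of exon 1 of 7. The RefSeq gene extends further upstream than that TSS, and the Prdm1 peak lies 69902 bp from its upstream end. The nearest listed peak to Zeb2, a zinc finger repressor that acts with T-bet in late maturation, was 128 bp wide, 56121 bp beyond the gene's end, at the promoter of Gtdc1. Ikzf3 had a peak nearer by: 1 of 487 bp (chromosome 11, 98458055 to 98458541) lay 6069 bp from the end of the gene and was assigned to Grb7, whose TSS is 11464 bp away. These distances run to the ends of the genes, whereas the authors' table names only the gene with the nearest TSS. Counting instead any peak inside a RefSeq gene or within 5000 bp of its ends, whatever its name, gave 8 peaks at the same 6 genes. The same count was not made over all genes.

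**Figure D3:**
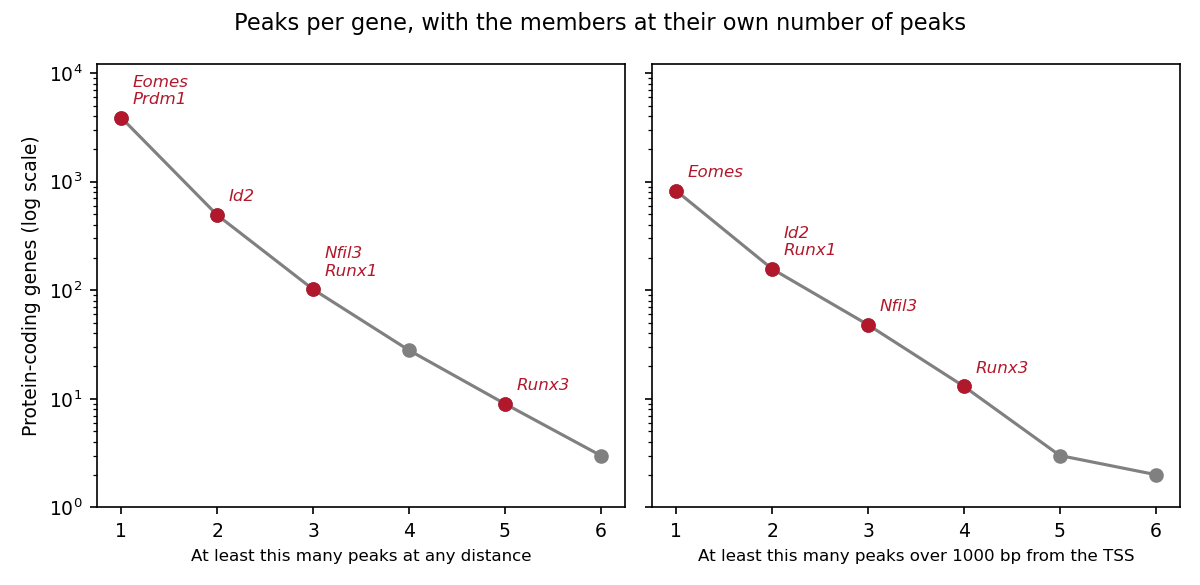
Lines give how many protein-coding genes (log scale) have at least the number of peaks on the x axis, at any distance (left) and over 1000 bp from the TSS (right). Runx3, with 5 peaks, is among 9 genes with at least 5, and with 4 distal peaks among 13 with at least 4.

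Having several peaks was uncommon over the whole list. At least 3 were found at 102 of 3890 protein-coding genes with a peak (2.62%), and at Nfil3, Runx1 and Runx3 of the 6 members. At least 5 were found at 9 genes (0.231%), Runx3 among them. The pattern of Runx3, 1 promoter and 4 distal peaks, was shared by 4 other genes, and the 3 with the most similar summed width were Gzmb, which encodes granzyme B (1358 bp, against 1532 bp for Runx3), Dusp6, which encodes a phosphatase of ERK (1753 bp), and Rreb1, a zinc finger factor gene (1816 bp). Likeness here means only equal numbers of listed peaks.

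In width, the members' distal peaks spanned 208 to 665 bp with a median of 344 bp (n = 12), close to the 310 bp of all 1251 distal peaks (interquartile range 226 to 448.5 bp). Eomes, Id2 and Nfil3 each had 1 peak of 646 to 665 bp, and these 3 stood above the remaining 9, which ran from 208 to 462 bp. None of the 12 was under 200 bp, compared with 14.1% of all distal peaks. The members' promoter peaks had a median of 160 bp (n = 3), below the lower quartile of all promoter peaks.

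**Figure D4:**
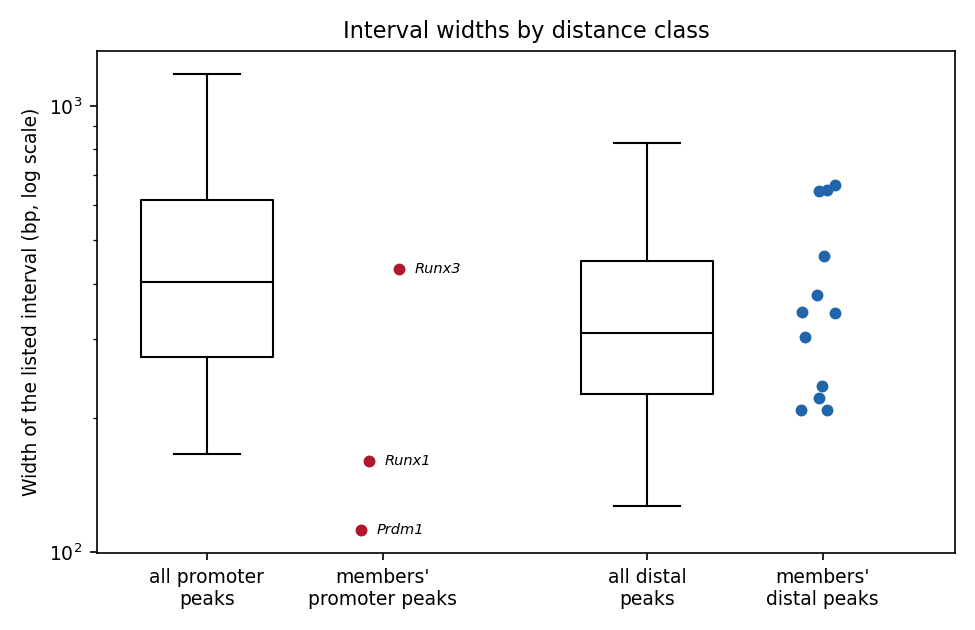
Boxes give the median and quartiles of interval width (bp, log scale) over all 3639 promoter and 1251 distal peaks, with whiskers at the 5th and 95th percentiles, and points give the members' peaks. Prdm1 and Runx1 lie below the box of promoter peaks at 112 and 160 bp, and 3 distal points at 646 to 665 bp lie above the box of distal peaks.

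Most of the distal peaks carried the same label: the authors annotated 11 of 12 as intergenic (91.7%) and 1 as intronic, whereas of all distal peaks 48.6% were intergenic and 44.2% intronic. Upstream of the TSS lay 9 of the 12 (75%), compared with 43.2% of all distal peaks. Both shares rest on 5 genes and were not tested. Of the 11 intergenic peaks, 2, at Eomes and at -8275 bp from Nfil3, fall inside lncRNA genes in RefSeq, and another lies inside Nfil3 itself as given above.

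The 47 other lymphoid transcription factors are a list of partners, paralogues and regulators of the same network. By share of genes with a distal peak, they stood between the members and all genes. Of the 47, 17 had a peak (36.2%), 7 a promoter peak (14.9%) and 13 a distal one (27.7%). The promoter share was close to the 15.1% of all protein-coding genes. Of their 25 peaks, 18 (72%) were distal and 16 (64%) lay more than 5000 bp from the TSS. The members' shares of peaks were 80% and 60%, so peaks beyond 5000 bp were no larger a part of the members' set. The 5 widest promoter peaks were at Ikzf1, which encodes Ikaros (1040 bp), Tcf3, which encodes the E proteins that Id2 inhibits (658 bp), Elf1, an ETS factor (430 bp), Cbfb, the RUNX partner (405 bp), and Bcl6, a repressor that opposes Prdm1 in lymphocytes (348 bp). Irf2 and Irf8, of the interferon regulatory factor family, had the most peaks with 3 each. Next came 4 genes with 2: Bcl11b, Elf1, Fli1 and Ikzf1. Ikzf1 is a paralogue of Ikzf3, and both of its peaks were in intron 1, at 303 and 1734 bp from the TSS. The Irf8 promoter interval is 3 bp long. Distal peaks of this list were intergenic in 8 of 18 cases (44.4%) and intronic in 10 (55.6%).

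Letters of the start sites were searched on both strands for 8 short motifs, over the 250 bases before the TSS and the TSS base. RefSeq's table held 13 such windows for 8 of the 10 members, 4 of them at Zeb2, where a pair overlaps; Ets1 and Ikzf3 had no entry. Motifs of XBP1s and related bZIP factors were CCACG (part of the ER stress element), TGACGT (part of the cyclic AMP response element) and GACGTG (core of the unfolded protein response element), which can overlap each other. The ER stress element motif CCACG was present in 8 of 13 member windows, at Nfil3, Prdm1, Runx1 (downstream start), both Runx3 starts, Tbx21 and the overlapping pair at Zeb2. It occurred in 28.5% of 32817 windows and in 52.1% of the 3339 windows that a listed peak overlapped by at least 1 bp. Here all windows means those of RefSeq's table, each counted once, with chromosome 18 left out. Of the 13 windows, 1 had a peak over it, at the upstream Runx3 start, and the motif shares were not tested. The Zeb2 pair holds 1 and the same CCACG match in both windows. In the covered Runx3 window CCACG lies 21 to 17 bases before the TSS, on the opposite strand. TGACGT was found in none of the 13, compared with 6.53% of all and 19.4% of covered windows. GACGTG also was in none, compared with 5.21% and 12.8%.

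Other letters searched were CCAAT (the NF-Y box), CCGGAAG (ETS), TGTGGT (RUNX), GGTGTGA (T-box) and GGGCGG (SP1, a GC-rich motif). CCAAT was in 10 of 13 member windows, beside 33.9% of all and 38% of covered windows, and the covered Runx3 window holds it at 215 to 211 and, on the opposite strand, 167 to 163 bases before the TSS. TGTGGT was in 1 of 13, the same Runx3 window, with 2 matches on the opposite strand between 134 and 121 bases before the TSS, beside 14.1% of all windows and 9.52% of covered ones. The SP1 motif was in 7 of 13, beside 32.8% and 64.8%, and the overlapping pair at Zeb2 again holds the same match in both windows. Tbx21, with no assigned peak, has 3 overlapping SP1 copies 81 to 66 bases before its TSS next to a CCACG. Neither CCGGAAG (6.94% of all windows, 23.9% of covered ones) nor GGTGTGA (3.35% and 2.96%) was in a member window. These are matches of letters in a fixed window and not bound sites.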

How the data were processed

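ChIP-seq libraries of 2 XBP1s immunoprecipitations and 2 inputs were made from mouse splenic NK cells and read as 100 bp pairs, per the labels' protocols. Per the file header, the deposited table is HOMER's annotation of 1 set of intervals, named common, on mm10. The score that the authors deposited is 0 for each peak. Tools named in the submitters' processing notes are HOMER (4.11 and 4.11.1), MACS2 (2.2.7.1), Bowtie2 (2.4.5), FastQC (0.11.9) and Trim Galore (0.6.7). Which peak calls were combined, and at what threshold, was not stated in the labels or the header, so a width may be that of an overlap of calls and not of a whole peak.

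Positions (1-based), distances, nearest genes and annotation classes are the authors'. Width is end minus start plus 1. Members were matched by symbol and gene number to RefSeq genes of GRCm38.p6, and shares were taken over its 21900 protein-coding genes. Counts are descriptions, and no p-value was computed. Counting and motif search were tested on simulated data. The members and lists were chosen with earlier results of these data known. The text names all 10 members, the 5 other lymphoid factors with the widest promoter peak and those with the most peaks (ties included), the 3 genes most like Runx3 in peak numbers, and the nearest peaks of members without one. Alternatives varied the promoter window, the minimum width and the assignment of peaks. Python 3.11.15, pandas 2.3.3, NumPy 2.4.6 and matplotlib 3.10.9 were used.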

Additional observations from a re-analysis of the deposited data

Results flagged for a closer look

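The detailed annotation column, on which no comparison above rests, names a repeat element for 4 of the members' 15 peaks, and it is given here as data not otherwise reported on. All 4 lie more than 5000 bp from a TSS. Long terminal repeats of endogenous retroviruses account for 3: ORR1E at -8275 bp and RMER15 at -84328 bp from Nfil3, and MLT1L at -41294 bp from Runx1. The remaining element is a SINE of the MIR family, under the Runx3 peak at -18278 bp. Among all 885 peaks more than 5000 bp from a TSS, 95 (10.7%) carry a repeat name and 41 (4.63%) an LTR, beside 4 and 3 of the members' 9. ORR1E and MLT1L belong to the ERVL-MaLR family, which holds 29 of the 51 LTR peaks in the list. The 4 intervals are 208 to 377 bp wide. Whether the share exceeds that of peaks at other genes was not tested.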

How the results depend on the processing

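Of 26 values recomputed under alternatives, 17 stayed within 1.5 times the main count or, for a median width, did not move. The width limits on the count of members with any peak (5 or 6 of 10) were chosen after seeing the data. Members with a promoter peak numbered 3, but 5 with a window of 3000 or 5000 bp, which takes in Nfil3 and Id2, and 1 (Runx3) with peaks of at least 200 bp or the widest 50% of all peaks. The number of member peaks fell from 15 to 6 with the widest 50%, and was 8 when peaks were taken by position in or near the RefSeq gene. Median width of distal peaks moved from 344 bp to 646 bp with the widest peak per member and to 304 bp beyond 5000 bp, and that of promoter peaks from 160 bp to 388.5 bp with a window of 5000 bp. Genes with a distal peak numbered 4 to 6 in every alternative run. Of these alternatives, only the count of distal peaks beyond 5000 bp has a share of all protein-coding genes beside it. The other counts therefore show how the members' values move and not how they compare with all genes. No paired analysis was possible because the table has no values per library, and for the same reason no replicate could be left out. With neither depth nor peak strength given, weakly bound and unbound genes cannot be told apart: a gene without a peak is one with none in this list.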
